A study of Homo sapiens with 50 samples.

Results

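The genes described here are 10 messengers and messenger-making enzymes that have been proposed to carry a radiation signal from a hit cell to its unhit neighbours. They are PTGS2 (the gene of COX-2), IL8, IL6, IL1A, IL1B, TNF, CXCL1, CXCL2, NOS2 and MIF. Members were taken by name: every probe of the array that is not a control and whose gene name is one of the 10. This gave 14 probes on 68 spots, out of 34127 probes for 25940 gene names. RNA of 50 samples was measured, in 10 groups of 5 replicates. The cells were H1299, a line from a human lung carcinoma of the non-small cell type, and H1299shRAD9, H1299 cells that stably express a short hairpin RNA against the checkpoint gene RAD9A from a puromycin-selected retroviral vector. The study describes 2 stable transfectants, and the labels do not say which one a sample came from. In each line the sham-irradiated controls are named CTL. The irradiated dishes received 1 Gy of α particles over part of their cells, and RNA was taken 4 h later. Cells under the beam form the direct groups and cells of the same dish shielded from it the bystander groups. Dishes were selected by the share of bystander cells with micronuclei. It was high in dishes called bystander-positive and at background in those called bystander-negative, and dishes between these were not used. DBP and BP are the direct and bystander cells of bystander-positive dishes, and DBN and BN those of bystander-negative dishes. Those names are therefore set by an outcome of the dishes, not by a treatment. The study's methods describe the samples of a group as independent of each other, and p-values measure the spread between them.

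COX-2 makes the prostaglandin precursor PGH2 from arachidonic acid, and NOS2 is the inducible enzyme that makes nitric oxide. IL1A, IL1B and TNF are pro-inflammatory cytokines that bind receptors on neighbouring cells and activate the transcription factor NF-κB. NF-κB in turn drives PTGS2, IL6, the neutrophil chemokines IL8, CXCL1 and CXCL2, and inhibitors of its own pathway. MIF is a cytokine that many cells store ready made and that needs no induction to be abundant.

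The results below turn on 4 probes of the chemokines CXCL1 and CXCL2, whose genes are close relatives on chromosome 4. The 60-base coding probes of the 2 genes overlap in related sequence and are printed whole, with capitals at the bases where they differ within the stretch they share. Bases 1 to 37 of the CXCL1 probe match bases 24 to 60 of the CXCL2 probe with 5 mismatches, 86.5% identity. The array's annotation also assigns the CXCL2 coding probe to a transcript of CXCL3, so its signal belongs to more than 1 gene. Of the probes in the 3′ untranslated regions, the first 30 of 60 bases are shown, and the longest run that those of CXCL1 and CXCL2 share is 4 bases. The 3′ probe lies 1204 bases from the coding probe in CXCL1 and 1357 bases from it in CXCL2. The PTGS2 probe, also in the 3′ untranslated region, is given in the same way. Positions are in hg19, as the array files give them. Probes are called coding or 3′ from the known ends of these proteins and transcripts, since no annotation of that build was used here.
CXCL1 coding probe A_33_P3330264, chr4:74735646-74735705, plus strand: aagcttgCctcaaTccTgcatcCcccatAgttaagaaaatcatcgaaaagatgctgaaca
CXCL2 coding probe A_24_P257416, chr4:74964342-74964401, minus strand: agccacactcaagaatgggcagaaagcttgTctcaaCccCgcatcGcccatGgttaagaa
CXCL1 3′ probe A_23_P7144, chr4:74736850-74736909, plus strand: catactgccttgtttaatggtagttttaca
CXCL2 3′ probe A_23_P315364, chr4:74962985-74963044, minus strand: caatgtgacggcagggaaatgtatgtgtgt
PTGS2 probe A_24_P250922, chr1:186641469-186641528, minus strand: tgagatatttaaggttgaatgtttgtcctt

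CXCL1, CXCL2 and IL6 also share a promoter feature. RefSeq promoters (GRCh38.p14, 250 bases before to 50 after the start) were found for 9 of the 10 genes, IL8 under its current symbol CXCL8. They were searched on both strands for the κB consensus, the site that NF-κB binds. It was found in 3 of the 9, and 5.91% of the 35116 promoters in the table hold it. In CXCL1 and CXCL2 the match can be read on either strand at overlapping positions. The 30 bases around each match are shown because they are nearly the same in the 2 chemokine genes, with the match in capitals. A match of letters is a description and not a measured site.
CXCL1, chr4:73869304-73869333, plus strand: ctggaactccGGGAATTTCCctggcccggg
CXCL2, chr4:74099254-74099283, minus strand: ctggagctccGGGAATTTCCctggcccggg
IL6, chr7:22727117-22727146, plus strand: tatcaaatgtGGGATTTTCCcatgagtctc

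Levels are given as log2 of the scanner's processed intensity minus the median of that array over all probes, so 0 is the array's median probe and each unit is a doubling. Levels of different probes are not compared as amounts of RNA. A spot counts as well above background where the scanner software marked it so. The share of all probes so marked ran from 55.1% to 73.1% on 49 arrays and was 83.5% on the array of H1299 DBN replicate 1, which stands apart. The 5 carcinoma-line markers KRT8, KRT18, KRT7, VIM and CDH2 were well above background on 50 of 50 arrays, whereas EPCAM was on 5 and CDH1 on 0. The probe of the targeted gene RAD9A lay at 3.65 ± 0.19 (SD, n = 5) in H1299shRAD9 CTL and 4.01 ± 0.13 (SD, n = 5) in H1299 CTL, lower by 0.36 (exact permutation test, two-sided, p = 0.0159). In the irradiated groups the same difference was smaller, from -0.34 in DBP to 0.06 in DBN, with exact p from 0.0714 to 0.873. The 50 arrays lay on 13 slides, and only 2 slides held both lines.

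The 10 genes fell into 3 that were clearly expressed and 7 at or near background. CXCL1, CXCL2 and MIF were well above background with every spot on all 50 arrays, through 5 of the 14 probes, and none was saturated. PTGS2 had at least 1 of its 10 spots well above background on 10 of 50 arrays, 5 in each line, and on none with all 10 spots. TNF, on a single spot, was so on 13 arrays, IL6 on 4 by its 10-spot probe and 1 by the other, IL1B on 3, and IL1A and NOS2 on 1 each. Of the IL8 probes, 1 was well above background on 1 array and the other on 0. By the scanner's less strict mark, a signal significantly above background in any spot, PTGS2 passed on 50 arrays, IL6 on 48 and IL1B on 42, but the IL8 probes on 4 and 3. Single spots near background scattered: the median SD between the 10 spots of 1 array was 0.52 for PTGS2 and 0.07 for MIF. For the 7 dim genes both sides of every comparison were at or near background on most arrays, so their log2 differences describe signals near the floor and are not given as folds of RNA. In cultures as in any bulk sample, fewer expressing cells and less RNA per cell cannot be told apart.

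**Figure D1:**
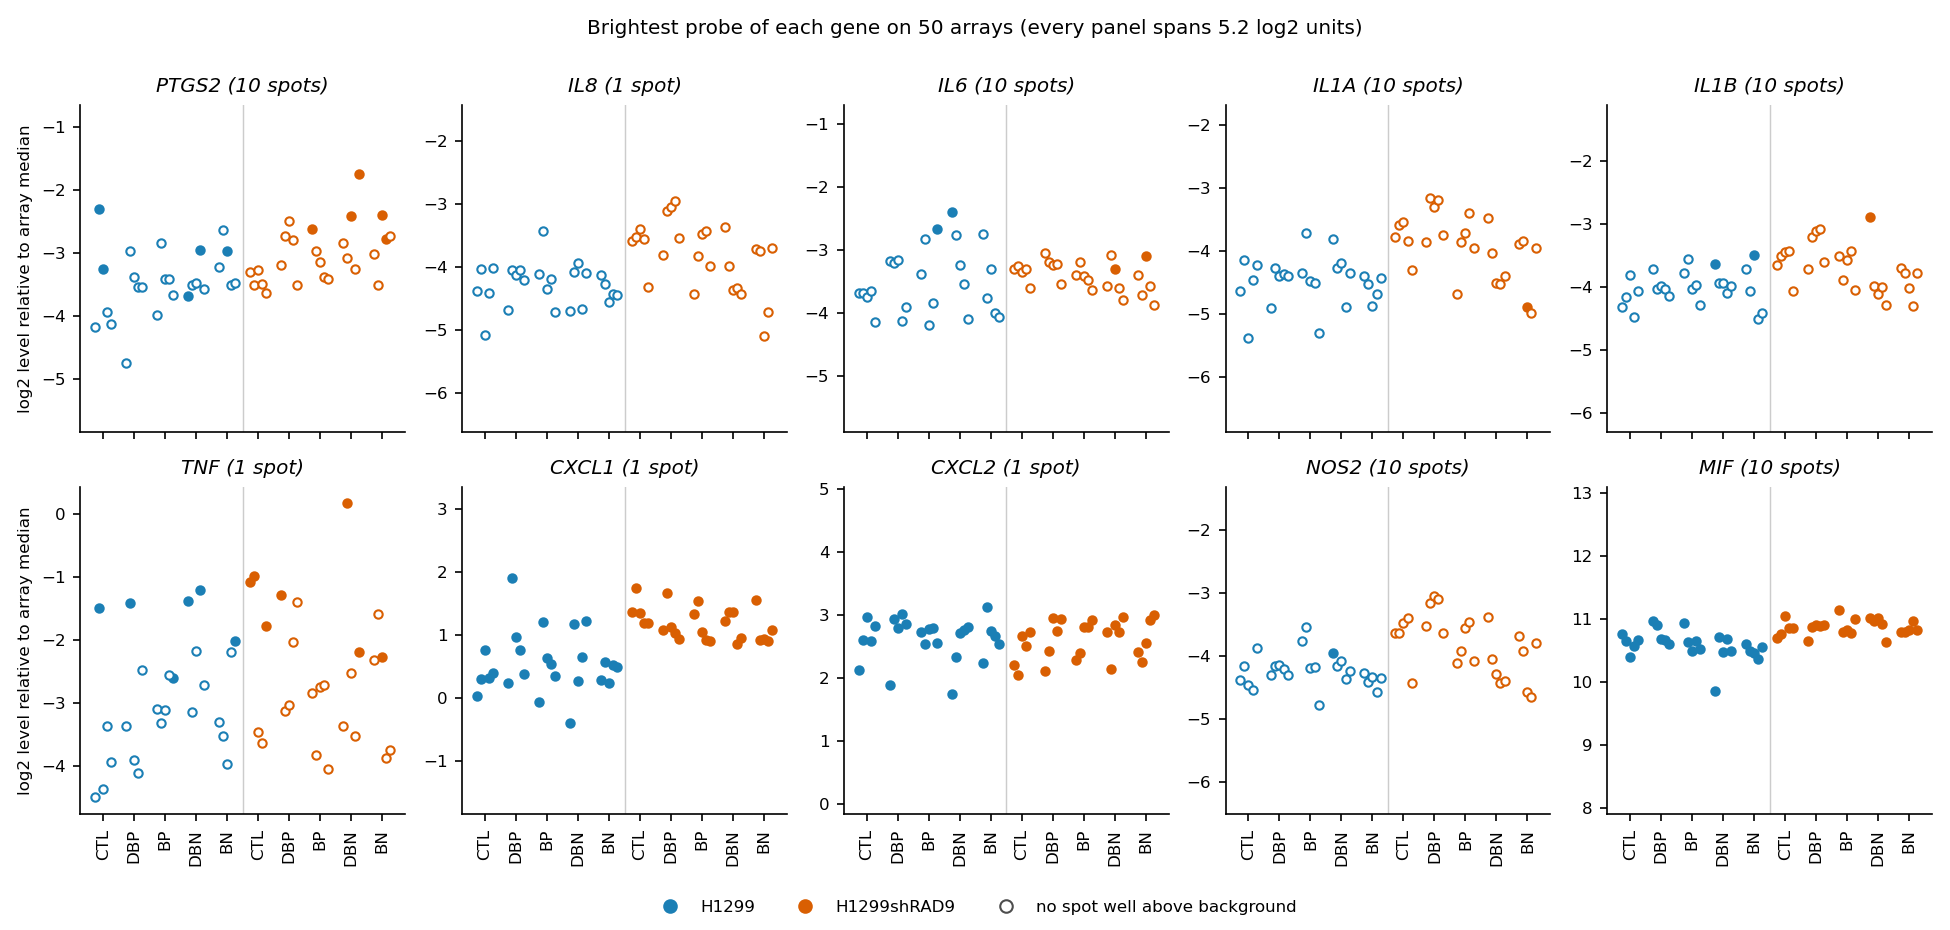
Each panel shows the brightest probe of 1 gene, with a point for each of 50 arrays, 5 per group, and the log2 level relative to the array median on the vertical axis. Filled points had at least 1 spot well above background, and CXCL1, CXCL2 and MIF are filled throughout while the other 7 genes are mostly open.

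PTGS2, the gene of COX-2, was low in all 10 groups, between a level of -4.75 and -1.74. In H1299shRAD9 CTL the 5 samples lay at -3.30, -3.51, -3.26, -3.48 and -3.63, none with a spot well above background. In the same replicate order the DBN samples lay at -2.83, -3.08, -2.41, -3.25 and -1.74, all above every control, and 2 of the 5 had spots well above background. The DBP samples lay at -3.18, -2.73, -2.50, -2.79 and -3.51, the BP samples at -2.62, -2.97, -3.14, -3.38 and -3.42, and the BN samples at -3.01, -3.51, -2.39, -2.77 and -2.73. Each irradiated group was above CTL in 5 of 5 pairs with the same replicate number, although the 4 groups share the same controls, and apart from DBN each overlapped them. The exact paired test gave p = 0.0625 in all 4, the smallest that 5 pairs allow. In limma's fit over all probes with no background filter the adjusted p ran from 0.245 (DBP) to 0.778 (BP), so no PTGS2 difference was called.

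In H1299 no such order was seen for PTGS2. The CTL samples spread from -4.17 to -2.30, a wider range than in any irradiated H1299 group, and 2 to 4 of 5 pairs were higher after irradiation. Means were -3.56 ± 0.79 for CTL, -3.63 ± 0.66 for DBP cells, -3.46 ± 0.42 for BP cells, -3.44 ± 0.28 for DBN cells and -3.16 ± 0.37 for BN cells (SD, n = 5 each). The test of the difference between the lines in the response did not pass, with a largest log2 value of 0.66, 95% interval -0.32 to 1.64, for DBN (limma adjusted p = 0.64).

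**Figure D2:**
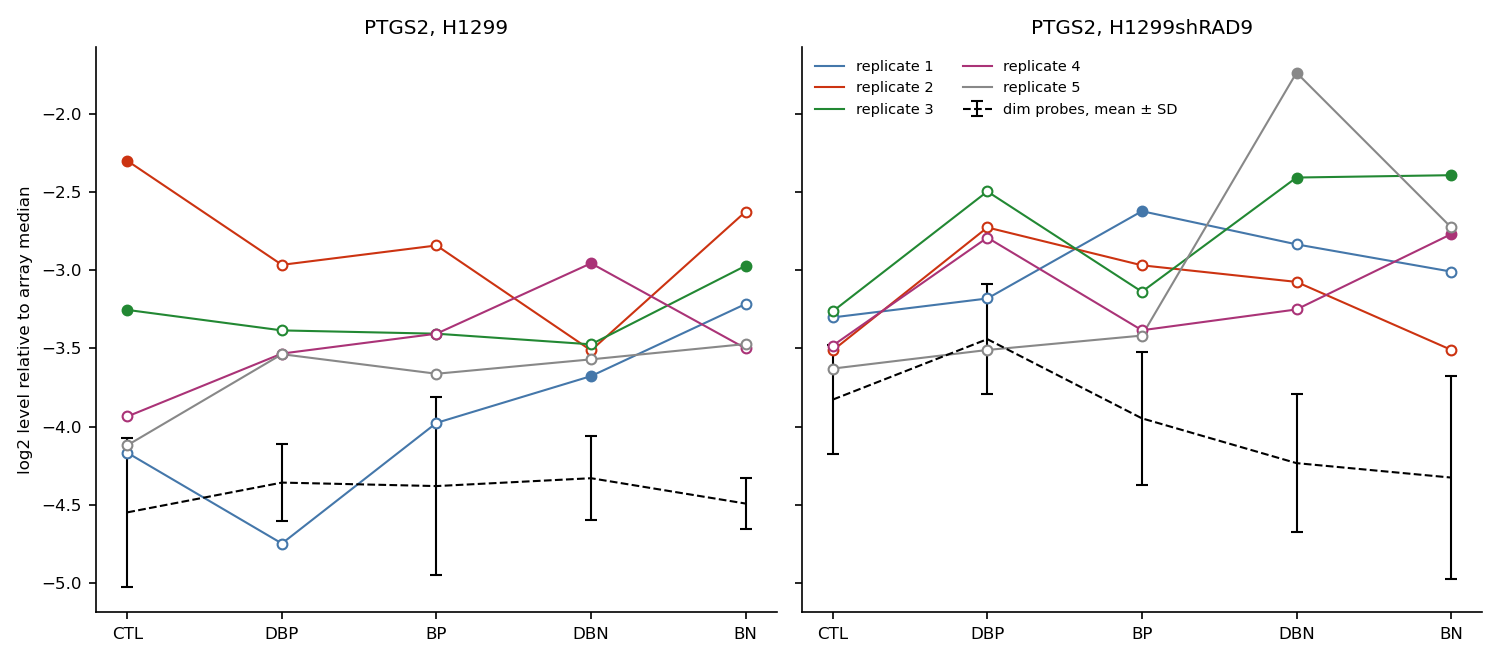
PTGS2 log2 level relative to the array median by group, with a line per replicate number in H1299 (left) and H1299shRAD9 (right). Filled points had a spot well above background, and the dashed line gives the mean ± SD (n = 5) of the median level of 2526 probes that no array showed well above background.

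How a dim gene moved with the floor of the array differed among the 7. The floor was followed as the median level of the 2526 probes that were never well above background. It lay between -5.33 and -3.15 across arrays, and its group mean was highest in H1299shRAD9 DBP, -3.44 ± 0.35, and lowest in H1299 CTL, -4.55 ± 0.48 (SD, n = 5 each). Across the 50 arrays, which share normalization and groups, the level correlated with this floor at r = 0.98 for IL8 by probe A_33_P3243230 and 0.70 by A_32_P87013, 0.97 for IL1A, 0.93 for NOS2, 0.71 for IL1B, and 0.14 for the 10-spot IL6 probe and 0.79 for the other. For PTGS2 it was 0.13 and for TNF 0.13. Between the CTL groups of the lines the floor itself was higher in H1299shRAD9 by 0.72, and the exact permutation test gave p under 0.05 for 9 of the 14 member probes. By limma, an unlike test, 4797 of the 12206 probes that passed both filters had an unadjusted p under 0.05 there. Not all of the 9 are dim, since the 3′ probe of CXCL1 is among them. So is IL6 by its 10-spot probe, at -3.36 against -3.78 with no overlap (exact p = 0.00794). Relative to the floor that difference turned to -0.30 (exact p = 0.333). Relative to the floor, PTGS2 in H1299shRAD9 stood at 0.39 ± 0.26 for CTL, 0.50 ± 0.24 for DBP, 0.84 ± 0.69 for BP, 1.57 ± 0.87 for DBN and 1.44 ± 0.98 for BN (SD, n = 5 each). On that scale DBN and BN were above CTL in 5 of 5 pairs (exact p = 0.0625 each), DBP in 4 and BP in 3, so the order of the DBP and BP samples rests on the scaling.

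**Figure D3:**
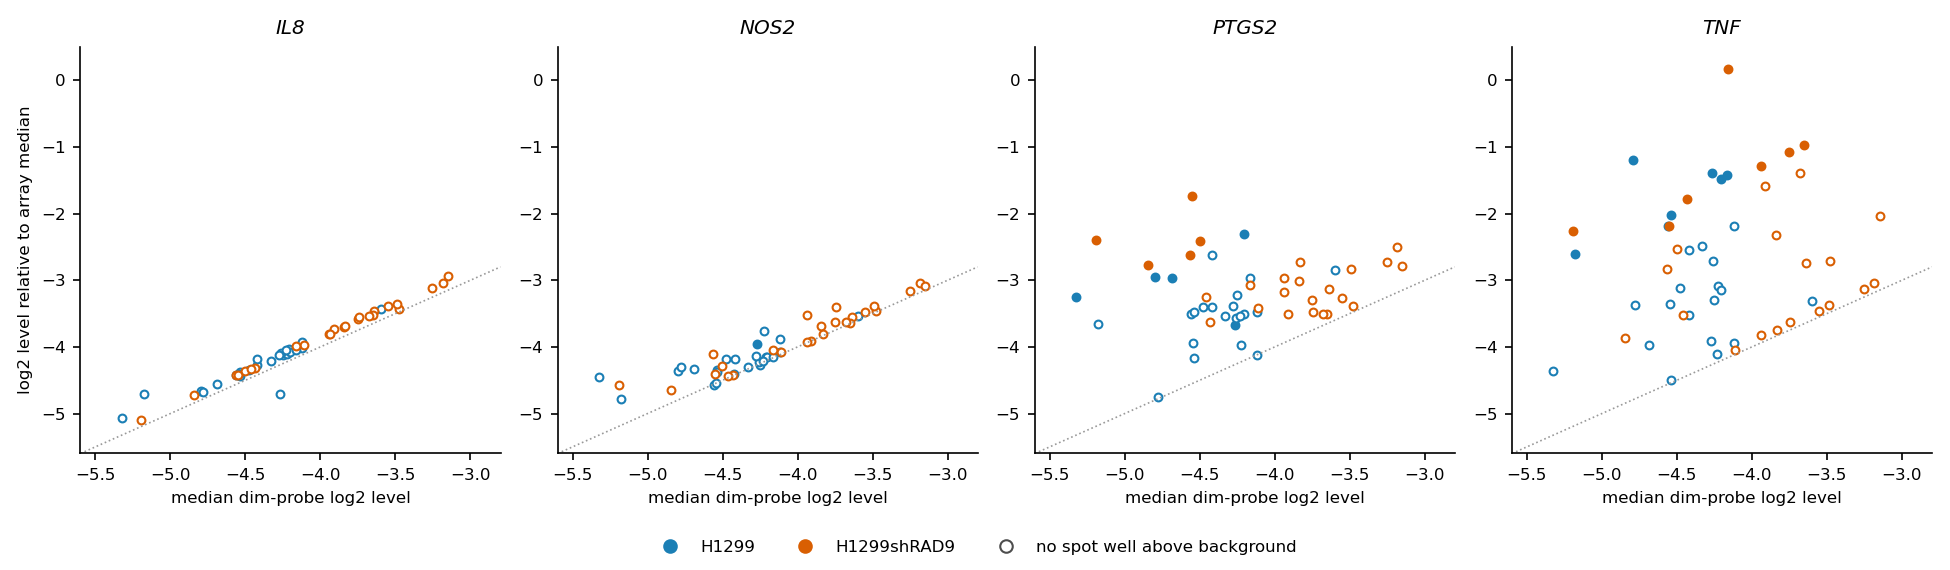
Log2 level relative to the array median of 4 dim genes (vertical axes) against the median level of the 2526 never-detected probes on the same array (horizontal axes), 50 arrays per panel, with equality as the dotted line. IL8 and NOS2 follow the line, while PTGS2 and TNF lie above it on many arrays.

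NOS2 (probe at chr17:26083862-26083921), the other enzyme, stayed between -4.78 and -3.05. Its 5 samples in H1299shRAD9 DBP, at -3.52, -3.16, -3.05, -3.09 and -3.63, were higher than all 5 in H1299 DBP, which lay between -4.30 and -4.14. The floor differed between the same groups by 0.92, and relative to it NOS2 differed by 0.02 (exact p = 0.786). On 49 of the 50 arrays no NOS2 spot was well above background.

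Among the interleukins, 4 probes separated the lines in DBP, with all 5 H1299shRAD9 samples above all 5 of H1299. They were those of IL1A, IL1B, IL8 (A_33_P3243230) and IL6 (A_33_P3407013), by 1.01, 0.63, 0.93 and 0.98 (exact permutation p = 0.00794 each). The floor differed between these groups by 0.92, and relative to it the differences were 0.097, -0.283, 0.015 and 0.064. Within groups, single samples stood out. IL8, by its probe A_32_P87013 at chr4:74609265-74609324, lay at -4.87, -1.25, -4.12, -4.80 and -1.99 in H1299 DBN, so that 2 of 5 samples were far above the rest and 1 of those was well above background. The other IL8 probe, at chr4:74607982-74608041, read between -4.70 and -3.93 in those same 5 samples, so the 2 probes disagreed. In the remaining 9 groups probe A_32_P87013 lay between -5.36 and -3.13. IL6, the cytokine of the gp130 receptor, lay at -2.40, -2.76, -3.24, -3.54 and -4.10 in H1299 DBN by its 10-spot probe (chr7:22771207-22771266), against -3.69, -3.68, -3.75, -3.65 and -4.14 in H1299 CTL. DBN was higher in 5 of 5 pairs by 0.04 to more than 1 log2 unit, and the exact paired p was 0.0625. The other IL6 probe (chr7:22769363-22769422) put only replicate 1 of DBN, at -1.24, apart from its group. That sample is the array with 83.5% of probes well above background.

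TNF (probe at chr6:31545837-31545896), the ligand of the TNF receptors, had the widest spread of the 10 genes. Its single spot ranged from -3.63 to -0.98 within H1299shRAD9 CTL and from -3.53 to 0.17 within H1299shRAD9 DBN. The 13 arrays with the spot well above background lay in 9 of the 10 groups, at most 3 in any group, and H1299shRAD9 BP had 0. No TNF comparison reached p under 0.05 in the exact tests, and the smallest was 0.103, for the lines in CTL. IL1A (chr2:113532362-113532421) lay between -5.39 and -3.17 and IL1B (chr2:113587429-113587488) between -4.52 and -2.9. The highest IL1B level, in H1299shRAD9 DBN replicate 1, had 11.1% of its usable spots well above background.

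Under the reported settings only the 3 member probes that passed both filters could be called, the 3′ probe of CXCL1 and the 2 probes of CXCL2. Of these 2 genes CXCL1, a neutrophil chemokine that signals through the receptor CXCR2, was the only one called in any comparison. By its 3′ probe it lay at 1.37, 1.75, 1.35, 1.19 and 1.19 in H1299shRAD9 CTL, and at 0.03, 0.29, 0.77, 0.31 and 0.40 in H1299 CTL. The 2 groups did not overlap. The log2 difference was 1.01 ± 0.17 (SE), 95% interval 0.65 to 1.37, a 2.01-fold higher level in the knockdown line (limma adjusted p = 0.00297, exact permutation p = 0.00794, the smallest that 5 against 5 allow). A comparison was called where p was under 0.005 between lines, or 0.006 otherwise, and the false discovery rate was under 10%. Of 12206 probes that passed both filters, 15.5% were called in this comparison, beside 1 of the 3 member probes tested, too few to set 1 share against the other. The difference stayed called under all 11 other settings tried and without any 1 replicate number, between 0.73 and 1.12. With the slide as a random block it was 0.99 (limma adjusted p = 0.0171). No slide held samples of both CTL groups, so this fit cannot tell a slide effect from the line.

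The coding probe of CXCL1 did not show that difference. It lay at 0.68, 0.77, 0.60, 0.64 and 0.60 in H1299shRAD9 CTL and at 0.15, 0.65, 0.56, 0.46 and 0.60 in H1299 CTL. Here the groups overlapped, and the log2 difference was 0.17, 95% interval -0.07 to 0.42 (limma fit without the 1.3-fold filter, adjusted p = 0.295). The interval of this probe ends below the 0.65 where that of the 3′ probe starts. Across the 50 arrays the 2 CXCL1 probes correlated at r = 0.47, and the CXCL1 coding probe correlated at 0.61 with the CXCL2 coding probe, with which it shares sequence. Only the 3′ probe of the 2 gave a called difference between the lines.

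**Figure D4:**
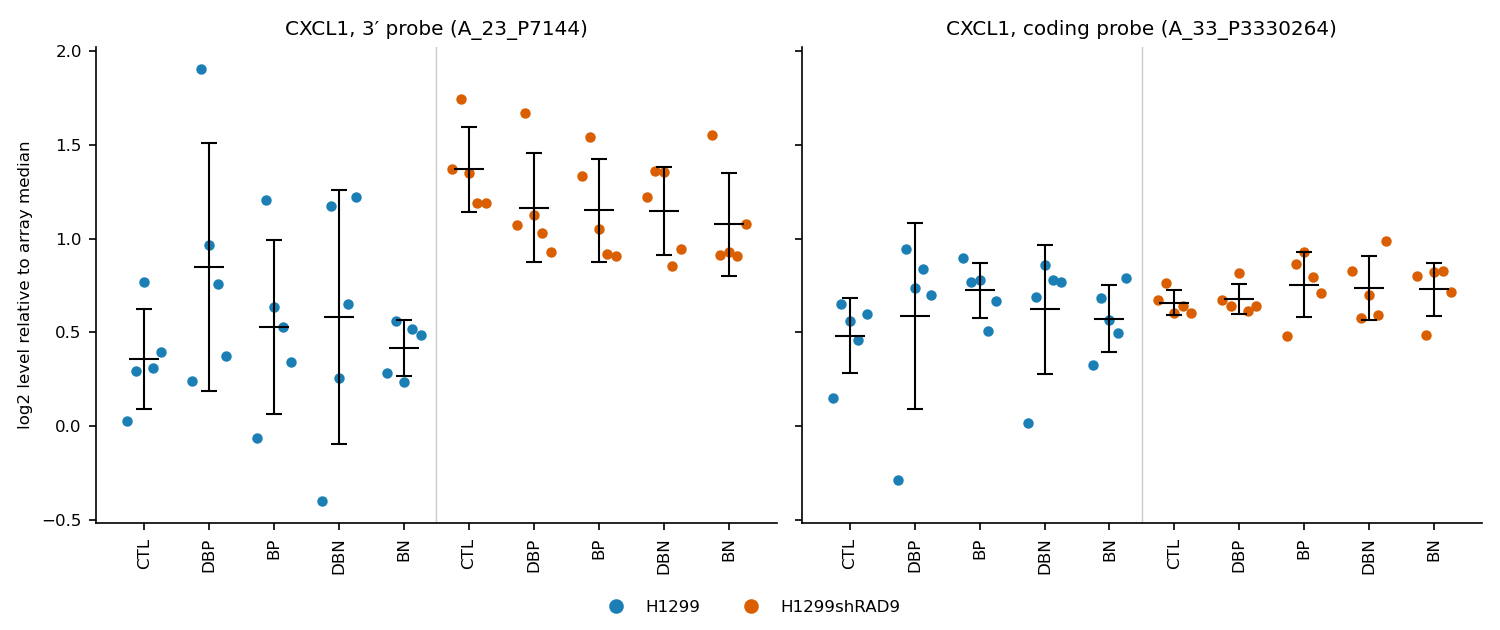
Log2 level of CXCL1 relative to the array median by its 3′ probe (left) and its coding probe (right), with a point per sample and the mean ± SD (n = 5) per group. By the 3′ probe the H1299shRAD9 CTL samples all lie above the H1299 CTL samples, and by the coding probe the groups overlap.

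After irradiation the 3′ probe of CXCL1 stayed higher in H1299shRAD9 than in H1299, by amounts below that in CTL. Between the BN groups the samples at 1.55, 0.92, 0.93, 0.91 and 1.08 in H1299shRAD9 lay above all 5 of H1299, at 0.28, 0.56, 0.23, 0.52 and 0.49. The difference of 0.66 ± 0.18 (SE) was called (limma adjusted p = 0.038), where 8.45% of probes were called. It was not called under 5 of 10 other settings, nor without replicate number 1, 3 or 5, where it ranged from 0.51 to 0.74 over the 5 omissions. With replicate numbers as a block it was 0.66 with adjusted p = 0.0673. In BP the difference was 0.62 (adjusted p = 0.124), in DBN 0.57 (0.283) and in DBP 0.32 (0.518), and none of these was called, with 7.56%, 5.06% and 6.84% of probes called.

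Within a line, CXCL1 was not called after irradiation. In H1299shRAD9 the 3′ probe was lower than CTL in 5 of 5 pairs in DBP and BP and in 4 of 5 in DBN and BN, with mean log2 differences between -0.29 and -0.20 and adjusted p from 0.339 to 0.43. In H1299 it was higher than CTL on average in each group, most in DBP by 0.49, 95% interval -0.03 to 1.01 (adjusted p = 0.748), where replicate 2 at 1.91 was the highest value of all 50 samples. The DBP responses of the lines differed by -0.69, 95% interval -1.27 to -0.11, which did not pass (limma adjusted p = 0.568). The other 3 differences in response lay between -0.44 and -0.35, with adjusted p of 0.701 or more. In the order of the 10 group means, the 5 H1299shRAD9 groups came first, from 1.37 in CTL to 1.08 in BN, and H1299 followed from 0.85 in DBP to 0.36 in CTL. No neighbours in that order differed beyond their spread by an unpaired exact test (smallest p = 0.262, for CTL and DBP of H1299shRAD9). By pairs the exact test of those 2 groups gave p = 0.0625, the smallest that 5 pairs allow.

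CXCL2, a chemokine of the same receptor, varied with the replicate number more than with the group, as CXCL1 did by its 3′ probe. For CXCL1 the replicate number accounted for 46.5% of the variance in H1299 and 48.4% in H1299shRAD9, and the group for 13.1% and 14.9%. By the 3′ probe of CXCL2, H1299 replicate 2 was high in all 5 groups, at 1.77 (CTL), 2.88 (DBP), 2.43 (BP), 2.33 (DBN) and 2.77 (BN). The other 20 H1299 samples lay between -0.46 and 1.32, and the 25 H1299shRAD9 samples between -0.41 and 1.16. In H1299 the replicate number accounted for 81% of the variance of this probe and the group for 2.08%. In H1299shRAD9 the shares were 67.7% and 4.34%. No CXCL2 comparison was called by either probe. In H1299shRAD9 the coding probe was higher than CTL in 5 of 5 pairs in BP and DBN and 4 of 5 in DBP and BN, by mean log2 differences of 0.20 to 0.25 (limma adjusted p from 0.281 to 0.43), and the 3′ probe by -0.12 to 0.08. Between the lines in CTL the coding probe differed by -0.20, 95% interval -0.61 to 0.22, and the 3′ probe by -0.17, -0.84 to 0.50.

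**Figure D5:**
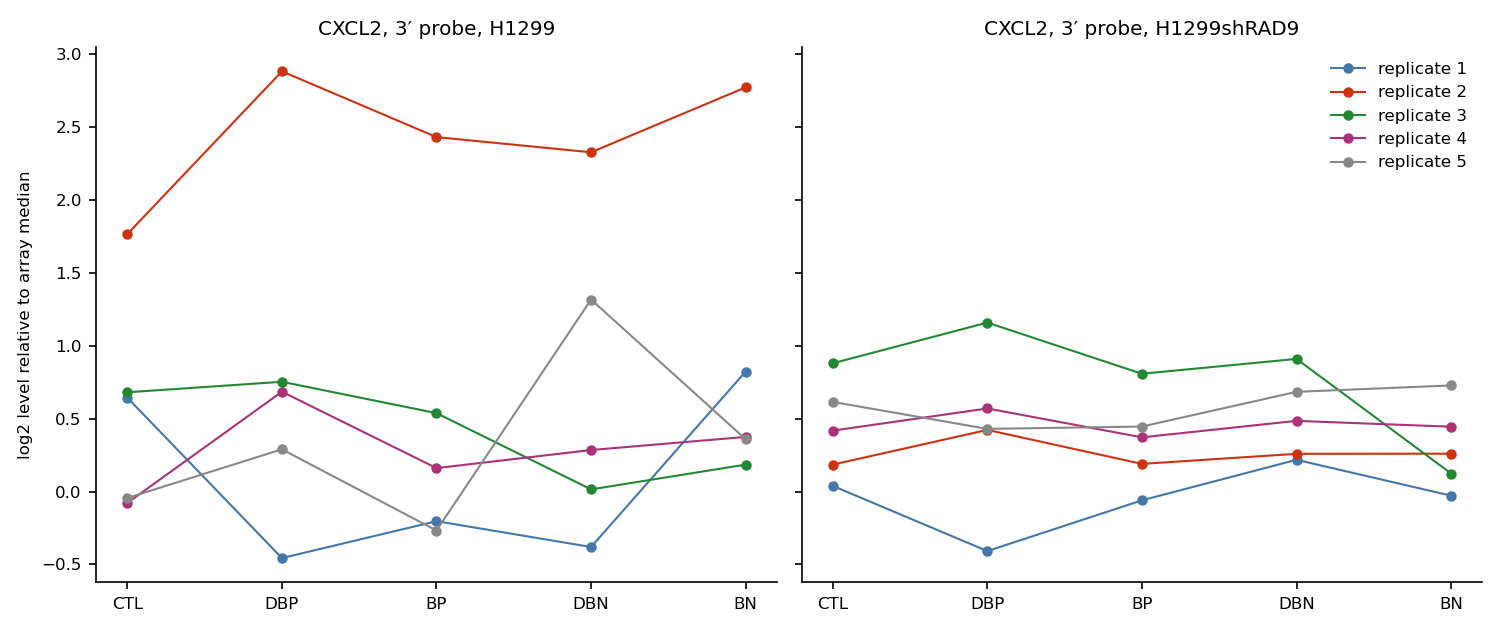
Log2 level of the CXCL2 3′ probe relative to the array median by group, with a line for each replicate number in H1299 (left) and H1299shRAD9 (right). H1299 replicate 2 lies between 1.77 and 2.88 in every group, above the other 4 replicates of its line.

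GDF15, a stress-induced cytokine of the list of other cytokines, was chosen after its values were seen to set beside this sample series. It lay between 7.42 and 8.87 in H1299 replicate 2 and between 2.72 and 6.84 in the other 20 H1299 samples. Among all probes above background, those whose level was most like the 3′ probe of CXCL2 after group means were removed were NFIL3 (r = 0.92), GADD45A (0.91) and LOC374443 (0.90), over 50 arrays. Before group means were removed the same values were 0.90, 0.90 and 0.89. GADD45A is a stress gene induced by DNA damage. For the coding probe of CXCL2 the nearest genes were C10orf46 (0.87), SPIRE1 (0.85) and the transcription factor gene JUN (0.85). For CXCL1 they were C4orf27, PIGK and ZNF562 by the 3′ probe (0.84 to 0.86), and HAUS2, JUN and LRRC40 by the coding probe (0.75 to 0.77). These are descriptions of arrays that share replicate numbers and depth.

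MIF (probe at chr22:24237346-24237405) gave the brightest signal of the 14 probes, at the 99.5th percentile of all probes and with a median processed intensity of 282300. Its levels lay between 10.63 and 11.14 in H1299shRAD9 and between 9.85 and 10.97 in H1299. The lowest belonged to the array of H1299 DBN replicate 1, and without it the H1299 samples started at 10.35. MIF varied too little to pass the 1.3-fold filter, so it was read from the fit of 20100 probes that passed the background filter. No irradiated group differed from its CTL by more than 0.16 on average in either direction. In H1299shRAD9 the 95% intervals of the 4 differences ran from -0.19 to 0.32. Between the lines MIF was higher in H1299shRAD9 in all 5 conditions, by 0.08 in DBP, 0.23 in CTL, 0.26 in BP, 0.35 in BN and 0.47 in DBN. In BN the groups did not overlap (10.79 to 10.96 against 10.35 to 10.60), with an exact permutation p = 0.00794. The limma fit gave p = 0.00708 before and 0.0784 after adjustment over all probes, beside the exact test. That p is above the threshold of 0.005 between lines, and MIF, outside the 1.3-fold filter, could not be called. The genes most like MIF within groups were MZT2B, ANAPC11 and C19orf24 (r = 0.92, 0.89 and 0.88).

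The comparisons of irradiated cells with their controls, which ask what the 1 Gy dose did in hit and in neighbouring cells, called 0 of the 3 member probes tested in each of 8. In H1299shRAD9 the bystander-positive dishes had 1.79% (DBP) and 2.34% (BP) of all probes called, and the negative dishes 4.85% (DBN) and 0.0492% (BN). In H1299 these were 0.0573% in DBP, 0.0164% in DBN and 0.0% in BP and BN. Direct and bystander cells of the same dishes differed at 0.0983% of probes in positive and 0.131% in negative H1299shRAD9 dishes, and at 0.0% in H1299. Bystander-positive and bystander-negative dishes differed at 0.0% of probes in all 4 comparisons, and the response differed between lines at 0.0% in all 4. The fits of positive against negative dishes had no replicate block, although their same-numbered samples correlated on average at 0.191 to 0.575. Their 0.0% therefore does not show that the dishes were alike. Where limma called 0 probes, between 46 and 1110 had an unadjusted p under 0.05. No member was called in any of these. Of the 3 member probes tested, 1 had an unadjusted limma p under 0.05 in H1299shRAD9 BP (CXCL1), 1 in DBN (the CXCL2 coding probe) and 1 in the DBP difference of response (CXCL1). Dim members are outside that count. In limma's fit of all probes, PTGS2 had unadjusted p from 0.0134 (DBP) to 0.037 (BP) in the 4 irradiated H1299shRAD9 groups. NOS2, IL1A, IL1B and both IL8 probes were also under 0.05 in DBP, with an adjusted p of 0.245 for each. The mean floor was -3.44 in H1299shRAD9 DBP and -3.83 in CTL. In H1299 DBP the interval of CXCL1 reached from -0.03 to 1.01.

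The genes around the 10 were read from lists of their enzymes, receptors, relatives and NF-κB partners, each gene by its brightest probe. Over the 5 lists, 9 of 49 genes tested were called between the control cells of the 2 lines, 18.4%, beside 15.5% of all probes. Between the lines after irradiation 18.4% of list genes were called in DBP and 16.3% in BP, beside 6.84% and 7.56% of all probes. In DBN and BN it was 12.2% each, beside 5.06% and 8.45%. These shares were not tested against each other. List by list the counts in CTL are small, and 1 of 10, 2 of 18 or 1 of 9 is no more than the 15.5% of all probes. The lists of other cytokines and of nitric oxide and MIF partners, given below, had shares above it, from few genes. Of 10 tested cytokine receptors and partners, 0 were higher and 1 was lower in H1299shRAD9 (list median -0.10, against 0.10 over all probes): IL1R1, the signalling receptor of IL1A and IL1B, at -1.71 ± 0.43 against -0.27 ± 0.38 (SD, n = 5). It fell by 1.44 on the log2 scale (adjusted p = 0.00265) and was called lower in all 5 conditions, by between 1.16 and 1.55. The size includes signals near the floor. In H1299shRAD9 CTL replicates 1 and 3 IL1R1 lay at -2.455 and -1.614. The lowest levels of any probe with all spots well above background there were -1.825 and -1.475. In DBN the call was lost without replicate number 3 or 4. Under other settings the CTL difference ranged from -1.47 to -0.68 and stayed called, and with normexp background correction the calls in DBP, DBN and BN were lost (adjusted p = 0.132, 0.185 and 0.213). Of 18 NF-κB factors and feedback targets, 2 were called in CTL, both lower, with a list median of -0.07. They were TRAF1, an adaptor of TNF receptors, by 0.69 (adjusted p = 0.0087), and ICAM1, an adhesion molecule that NF-κB induces, by 2.15 (adjusted p = 0.0106). ICAM1 was called lower in all 5 conditions and TRAF1 in DBP also. After irradiation other calls between the lines went both ways. NFKBIB was higher in H1299shRAD9 in DBP, BP and DBN, MAP3K14 and IL7 were higher in BP, and MAP3K8 was lower in DBP. Each call of these last genes was lost without 4 or all 5 of the replicate numbers in turn.

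Several of these genes were split within H1299shRAD9, so that a mean difference between the lines describes neither part. Of the 15 list genes called in any comparison between lines or after irradiation, 5 had both of replicates 1 and 2 on 1 side of replicates 3 to 5 in each of the 5 conditions: ICAM1, PTGER1, ASS1, GDF15 and MAP3K14. For ICAM1, in all 5 conditions replicates 1 and 2 lay between 0.81 and 1.44 and replicates 3 to 5 between -1.52 and -0.73, so no sample lay between. The 25 H1299 samples lay between 1.31 and 2.54. PTGER1 lay between 1.49 and 2.33 in replicates 1 and 2 and between 0.43 and 0.77 in the others, and the CTL samples of replicates 1 and 2, at 1.74 and 1.49, were within the H1299 CTL range of 1.36 to 2.32. ASS1 was split the other way, from -3.09 to -0.80 in replicates 1 and 2 and from -0.43 to 0.48 in the others, all below the H1299 CTL samples (1.17 to 2.85). GDF15 lay between 0.42 and 1.29 in replicates 1 and 2 and from 1.60 to 4.00 in the others. Among the members, the CXCL2 coding probe was lower in replicates 1 and 2 than in 3 to 5 within each of the 5 conditions, with means over conditions of 2.35 and 2.25 against 2.76, 2.74 and 2.91, and the replicate number took 74.1% of its variance. The CXCL1 3′ probe was higher in replicates 1 and 2 in 2 of 5 conditions. In CTL its replicates 3 to 5, at 1.19 to 1.35, were also above all H1299 CTL samples. The splits were noticed in these values and were not tested, and the labels do not say which transfectant a replicate came from. Without replicate number 3 the CTL difference of ICAM1 was no longer called (adjusted p = 0.0687).

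Of 7 other cytokines and chemokines tested, 3 were lower in H1299shRAD9 CTL and 0 higher, with a list median of -0.30. IL32, a cytokine that acts on TNF production, fell by 0.86 (adjusted p = 0.0125), LTB, the membrane anchor of lymphotoxin, by 0.77 (adjusted p = 0.0191), and GDF15 by 2.79 (adjusted p = 0.0229). The LTB call was lost without replicate number 4 or 5 and with the slide as a random block. The GDF15 call was lost without replicate number 1, with no background filter, with all groups in one fit and with the replicate block, and the difference ranged from -3.29 to -1.73 as replicate numbers were left out. Its H1299 CTL values of 4.57, 7.42, 3.25, 2.94 and 3.09 include the high replicate 2. Of 9 prostaglandin genes 1 was called: PTGER1, a receptor of the COX-2 product PGE2, was lower by 1.18 (adjusted p = 0.0177), and the call was lost without replicate number 3, 4 or 5 and with the replicate block. The list median was -0.35. Of 5 genes of nitric oxide and MIF partners, ASS1, which resupplies arginine to nitric oxide synthases, fell by 2.64 (adjusted p = 0.00951) and was called lower in all 5 conditions. In H1299shRAD9 CTL replicates 1 and 2 it lay at -2.641 and -1.84. The lowest levels of any probe with all spots well above background there were -1.825 and -1.603. The size of its fall thus includes signals near the floor. GUCY1A3, a subunit of the nitric oxide receptor, rose by 0.73 (adjusted p = 0.0312), a call lost under 8 of 11 other settings and without replicate number 2, 4 or 5. It was called higher in all 5 conditions. In DBP and BN the call was kept without any 1 replicate number and lost only with normexp background correction. In BP it was lost without replicate number 1 or 4, and in DBN without 2, 3, 4 or 5. The CTL median of this nitric oxide and MIF partner list was -0.06. Markers of leukocytes moved with the line too: PTPRC was higher by 1.20 (limma adjusted p = 0.0123) and CD68 lower by 0.91 (adjusted p = 0.023), calls lost without replicate number 3 and without 3, 4 or 5. Of the 9 leukocyte markers 6 were well above background on all arrays, MS4A1 on 0, and the summed linear level ran from 48.1 to 653 in H1299 and from 54.1 to 380.0 in H1299shRAD9. Their part in the list results was not tested.

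After irradiation of H1299shRAD9, 5 calls fell on these lists, 0 of them in the prostaglandin or nitric oxide lists. Of the 49 genes tested 4.08% were called in DBP, where 1.79% of all probes were. The shares were 2.04% beside 2.34% for BP, 4.08% beside 4.85% for DBN, and 0 for BN, so only in DBP was the share above that of all probes, by 2 genes. In H1299, where at most 0.0573% of all probes were called, 0 were, which does not show that no level moved there. IL6ST, the gp130 chain of the IL6 receptor, rose by 0.53 in DBP (adjusted p = 0.0825). RELB, an NF-κB subunit of the non-canonical pathway, rose by 0.55 in DBP (adjusted p = 0.0783) and 0.59 in DBN (adjusted p = 0.0927). GDF15 rose by 0.72 in BP (adjusted p = 0.0764) and 0.92 in DBN (adjusted p = 0.0884). The list medians in DBP were 0.11 for NF-κB genes, 0.13 for receptors and 0.16 for other cytokines, beside 0.02 over all probes. Each of these 5 calls was lost without 4 or all 5 of the replicate numbers in turn, with adjusted p up to 0.3. CD14, a leukocyte marker, fell by 0.58 in DBP (adjusted p = 0.0825) and by 0.56 in DBN (adjusted p = 0.0677). Those calls were lost without 4 of 5 replicate numbers in DBP and without each of the 5 in DBN, and under 4 of 11 other settings in each. The part of CD14 in the list results was not tested. In H1299, where RELB was not called, its DBP samples lay between 8.231 and 9.251, all above CTL, between 7.465 and 7.941. CD14 in H1299 lay between -1.064 and -0.018 in DBP and between -0.446 and 0.037 in CTL, lower in each pair. IL6ST in DBP and GDF15 in BP and DBN overlapped CTL in H1299. For a difference in response between the lines, 0 of the 49 list genes were called.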

How the data were processed

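RNA of 50 samples was hybridised to Agilent 1-colour (Cy3) arrays. The deposited scanner files hold a processed intensity per spot, which the authors made with Feature Extraction, already background-subtracted, and a mark for spots well above background. The deposited value table holds the authors' log2 values of the same arrays and was used as an alternative.

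Log2 was taken of each spot, the log2 values of a probe's spots were averaged without flagged spots, and the array median was subtracted. Probes were kept when well above background on more than 75% of arrays (20100 probes) and then when at least 20% of arrays lay 1.3-fold from the median (12206 probes). limma 3.58.1 in R 4.3.3 fitted the groups compared. After the study's paired test, the replicate number was a block for irradiated against CTL cells and for direct against bystander cells. For the difference in response between lines, line and replicate number together were the block. Comparisons of bystander-positive with bystander-negative dishes, and of the lines within a condition, had no block. Deviations of same-numbered samples correlated on average at 0.487 to 0.532 between irradiated and CTL cells of H1299shRAD9, at 0.139 to 0.414 in H1299, and at -0.054 to 0.09 between lines. Probes with p under 0.006 (0.005 between lines) and a Benjamini-Hochberg rate under 10% were called. Dim members were read from the fit of all probes and by two-sided exact permutation tests (SciPy 1.17.1). The scripts were tested on simulated data. All 10 members were named. From each list the called genes were named, at most 4 with the largest changes, or up to 2 with the smallest p, and 3 most similar genes for each probe above background. Members and lists were chosen with earlier results of these data known. The alternatives were other scalings, background corrections, marks and filters, the block, the slide, all groups in 1 fit, the authors' values, and each replicate number left out. The number of arrays limits the precision.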

Additional observations from a re-analysis of the deposited data

Results flagged for a closer look

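In 22 of 140 groups of 5 samples, counted over the 14 probes, 1 sample lay far from the other 4, by a gap above Dixon's critical value of 0.71 of the group's range. Chance gives this in about 1 group in 20.

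Several fell on the same array, so they are not separate events. H1299 DBN replicate 1, the array with 83.5% of probes well above background, was low for MIF (9.85) and the CXCL1 coding probe (0.016) and high for IL6 by A_33_P3407013 (-1.24). H1299 DBP replicate 1 was low for both coding chemokine probes, CXCL1 at -0.29 and CXCL2 at 1.88, and for IL8 (-4.67, A_33_P3243230) and IL1A (-4.91). H1299shRAD9 CTL replicate 5 was low for 5 dim probes: IL8 at -4.31 and -4.40, IL6 at -3.61 and -4.18, and NOS2 at -4.43.

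The others were single values. PTGS2 was high in H1299 DBN replicate 4 (-2.96) and IL6 low in H1299 CTL replicate 5 (-4.14). IL1B was high in H1299shRAD9 DBN replicate 1 (-2.9). The CXCL1 3′ probe was high in H1299shRAD9 DBP replicate 2 (1.67) and BN replicate 1 (1.55), its coding probe in H1299shRAD9 DBP replicate 3 (0.82), and the CXCL2 3′ probe in H1299 BN replicate 2 (2.77). MIF was low in H1299shRAD9 DBP replicate 1 (10.65) and DBN replicate 5 (10.63) and high in BN replicate 4 (10.96). The cause was not tested for any of these.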

How the results depend on the processing

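The call of CXCL1 between the CTL groups was kept under all alternatives run for it. Between the BN groups the number of member probes called, 1 as reported, was 0 with 75th percentile scaling (difference 0.58, adjusted p = 0.0651), normexp background correction (0.61, 0.213), the authors' processed values (0.54, 0.0795), all groups in one fit (0.66, 0.0871) and the replicate block (0.66, 0.0673). It ranged from 0 to 1 as replicate numbers were left out. With no background filter the member probes called rose from 0 to 4 in H1299shRAD9 DBP against BP, to 1 in DBP against DBN and to 5 between the lines in DBP. All were dim members. The never-detected probes differed by 0.506, 0.792 and 0.917 in those comparisons, and 9 of the 10 calls lay within 0.1 of that, the exception being IL1B between the lines in DBP (0.634).

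Relative to the never-detected probes, 76 of 189 differences of dim member probes turned sign, and 8 of these had an exact p under 0.05 on at least 1 of the scales: between the lines in CTL IL8 by A_33_P3243230 (-0.012), IL6 by A_23_P71037 (-0.303), IL1B (-0.17) and NOS2 (-0.153), between the lines in DBP IL8 by A_32_P87013 (-0.107) and IL1B (-0.283), and in H1299shRAD9 DBP against DBN IL1A (-0.058) and IL1B (-0.281). This scale, and leaving out H1299 DBN replicate 1, were chosen after seeing the data. Of the other values of single probes under alternatives 1725 kept their side of the threshold, 97 moved, 19 lost a call or threshold and 2 gained one. Intensities near background limit 7 of the 10 genes.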
